A study of Mus musculus with 12 samples.

Results

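Oxysterols are oxidised forms of cholesterol, and 5 mouse genes for their synthesis, breakdown and detection were followed here: Ch25h, Cyp27a1, Cyp7b1, Hsd3b7 and Gpr183. They were chosen by name, as enzymes that make or degrade oxysterols together with 1 cell-surface receptor for them. All 5 were found among the 41388 genes of the deposited tables, and 5 of 5 were among the 12914 genes kept by a filter on low counts. Without palmitate and LPS, Ch25h had only 4 to 10 counts per library, and with them Gpr183 had 4 to 11. Fits of only those libraries put the gene concerned under the filter. In macrophages given palmitate with LPS, Ch25h rose 103-fold and 108-fold in the 2 genotypes and Cyp7b1 rose 3.73-fold and 2.90-fold, while Cyp27a1, Hsd3b7 and Gpr183 fell. Cyp27a1 was the 1 gene of the 5 whose response differed between the genotypes by the test of that difference.

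Cholesterol 25-hydroxylase, the product of Ch25h, adds a hydroxyl group at carbon 25 of cholesterol, and in macrophages its gene is known to be induced by LPS and by interferon. Cyp27a1 encodes the mitochondrial sterol 27-hydroxylase, which makes 27-hydroxycholesterol. The product of Cyp7b1 adds a further hydroxyl group at carbon 7 and turns 25-hydroxycholesterol into 7α,25-dihydroxycholesterol, the strongest known ligand of GPR183 (also called EBI2), a receptor that guides the migration of B cells, T cells and myeloid cells. The enzyme encoded by Hsd3b7 oxidises such 7α-hydroxylated sterols, which ends their action on GPR183 and leads toward bile acids. Oxysterols also bind the nuclear LXR receptors, and 25-hydroxycholesterol holds back SREBP2, the transcription factor that drives cholesterol synthesis.

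The cells were peritoneal macrophages drawn to the abdominal cavity by thioglycolate, collected on day 4 after its injection and, a day after plating, stimulated for 8 h. Vehicle was BSA with PBS; the treatment was 250 uM palmitate, a saturated fatty acid, with 100 ng/ml LPS, a bacterial endotoxin. Controls were labelled LysM-Cre and the other genotype LysM-PPARg, a PPARγ knockout per the labels; the LysM promoter is active in myeloid cells, so both genotypes carry the same Cre driver. Genotype and treatment made 4 groups of 3 libraries, and the sources used here give no sex, age, strain background or list of the exons removed. Palmitate and LPS were never given alone, so their effects cannot be told apart, and no control carried the floxed gene without Cre. Nothing says that the 3 libraries of a group came from separate mice, so each p-value measures only the spread between these libraries.

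Libraries held 17960457 to 22696385 counts. Levels are given as CPM, the count scaled to a fixed library total, after TMM scaling, a correction for differences in library composition. Pparg, the targeted gene, went against its label: it stood at 62.3, 61.6 and 61.0 CPM in the control vehicle libraries and at 111, 91.0 and 95.9 CPM in those labelled knockout, a log2 difference of 0.69 ± 0.11 (SE; adjusted p = 0.00124, edgeR's quasi-likelihood test). After treatment Pparg was at 2.86 to 4.15 CPM in controls and at 3.59 to 5.04 CPM in the labelled knockouts. The whole gene was counted, so the loss of single exons is not visible in these tables, and the libraries are called "labelled knockout" throughout. Of the 9 macrophage markers examined, none was at 0 in any library. The first labelled knockout vehicle library stood apart: without it, 4080 in place of 2081 genes differed between genotypes after treatment, and 789 in place of 491 in vehicle.

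The genes lie on 5 chromosomes (build GRCm38, positions as deposited). Ch25h is a gene of 1 exon on chromosome 19 (34473786 to 34475135, minus strand), and Gpr183 has 2 exons on chromosome 14 (121952331 to 121965193, minus strand). Cyp27a1 has 7 exon segments on chromosome 1 (74713574 to 74737892, plus strand), and Cyp7b1 has 6 on chromosome 3 (18071950 to 18243338, minus strand). Hsd3b7 was counted over 18 exon segments on chromosome 7 (127785608 to 127803802, plus strand). Of these, 13 end before the start of Hsd3b7 in RefSeq and lie over exons of Setd1a, a histone methyltransferase gene on the same strand. They share 3523 bases, 57.2% of the exon bases counted for Hsd3b7, so its values are uncertain. Ch25h shares 159 exon bases, 11.8% of its length, with Gm26902, a gene on the other strand. Gm26902 had 1, 4, 20 and 23 counts over the 3 libraries of the control vehicle, labelled knockout vehicle, control treated and labelled knockout treated groups; whether the counting used strand is not given in the sources used here, so reads of these genes cannot be told apart there.

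The stretch just before the start of transcription is shown for the 3 genes with the largest treatment responses, 5′ to 3′, from RefSeq on GRCm38.p6; RefSeq promoters were matched for 4 of the 5 genes. Capitals mark a match to a searched motif. The last 16 bases before the RefSeq start of Ch25h, and the last 2 of Gpr183, are not shown. They lie inside the gene in the GENCODE annotation.
Ch25h promoter (chr19:34475165-34475398, minus strand): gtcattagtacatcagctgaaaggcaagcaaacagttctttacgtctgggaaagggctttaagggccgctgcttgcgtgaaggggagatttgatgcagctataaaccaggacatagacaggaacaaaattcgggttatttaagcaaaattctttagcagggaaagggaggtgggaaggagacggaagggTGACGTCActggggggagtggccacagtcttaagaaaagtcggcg
Cyp27a1 promoter (chr1:74713285-74713534, plus strand): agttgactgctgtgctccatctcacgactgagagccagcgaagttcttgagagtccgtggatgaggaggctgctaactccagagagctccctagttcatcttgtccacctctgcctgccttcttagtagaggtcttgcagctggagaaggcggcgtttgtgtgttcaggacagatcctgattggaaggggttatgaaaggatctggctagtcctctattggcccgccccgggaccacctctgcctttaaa
Gpr183 promoter (chr14:121965196-121965443, minus strand): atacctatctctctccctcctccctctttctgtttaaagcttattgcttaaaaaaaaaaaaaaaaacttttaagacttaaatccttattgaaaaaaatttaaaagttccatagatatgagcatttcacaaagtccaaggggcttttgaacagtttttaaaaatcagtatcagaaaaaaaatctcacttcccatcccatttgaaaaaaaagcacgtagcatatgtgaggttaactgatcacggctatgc
These windows, with the bases not shown, were searched on both strands for 5 motifs. Ch25h holds the cAMP-response palindrome TGACGTCA at 61 to 54 bases before its RefSeq start, counted with the bases not shown. This palindrome is held by 1.55% of 32851 RefSeq promoters within 250 bases. The interferon-response core GAAANNGAA (7.13% of promoters), the AP-1 site TGANTCA (6.75%), the NF-kB consensus (7.25%) and the nuclear receptor half-site AGGTCA (14.0%) were not matched in these 3 windows. In Hsd3b7 the NF-kB consensus was the 1 motif matched. GC content was 48.7% for Ch25h, 54.0% for Cyp27a1 and 31.9% for Gpr183. A match is a run of letters and does not show that a factor binds there.

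The first question was how the genes respond to palmitate with LPS. All 5 members changed in both genotypes: 2 rose and 3 fell in controls, and 2 rose and 3 fell in the labelled knockouts. These comparisons moved most of the transcriptome, so a call alone says little about these genes. In controls 32.0% of tested genes were higher and 34.7% lower after treatment, and in the labelled knockouts 33.7% and 35.6%. With scaling to total counts the median gene shifted by a further −0.33 in controls and −0.36 in the labelled knockouts on the log2 scale, and the split became 2644 higher against 6416 lower (4132 against 4480 with TMM) in controls and 2676 against 6570 (4356 against 4600) in the labelled knockouts. Under that scaling each of the 5 genes kept its direction and its call. In bulk RNA, fewer cells of a type and less RNA per cell cannot be told apart.

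**Figure D1:**
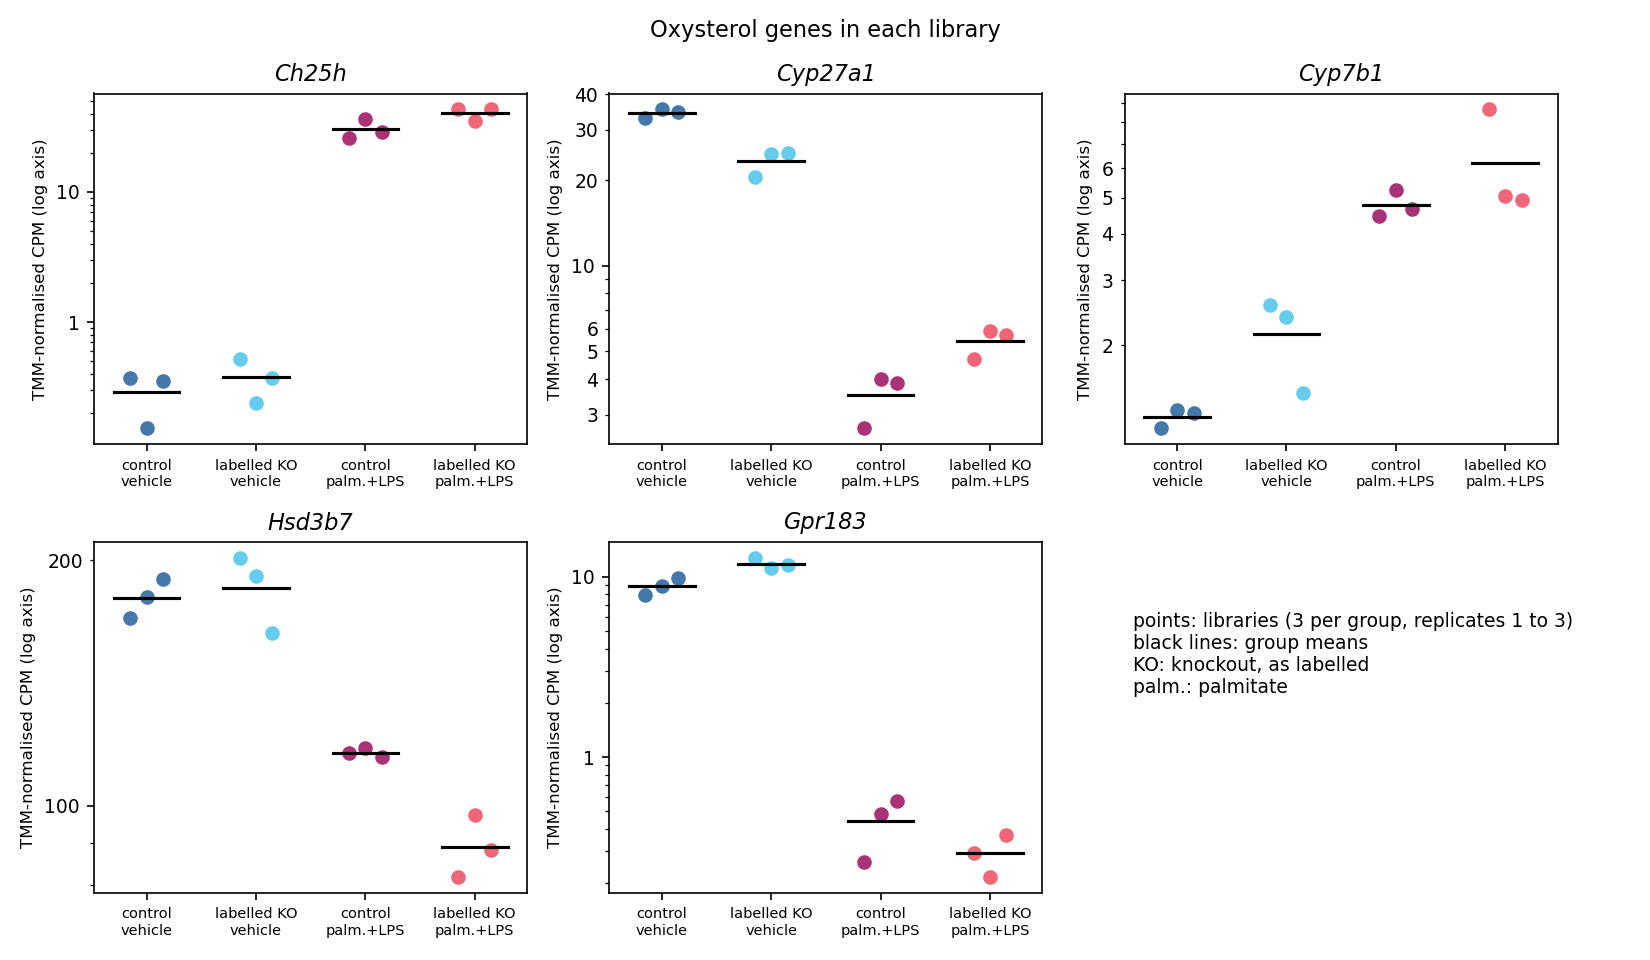
TMM-normalised CPM of the 5 oxysterol genes in each of the 12 libraries, on log axes that differ between panels; points are libraries and black lines group means. Ch25h lies between 0.153 and 0.524 CPM in the vehicle libraries and between 25.9 and 43.0 CPM in the treated ones, Gpr183 moves the other way, and the Cyp27a1 groups of the 2 genotypes change order with treatment.

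Ch25h was close to silent in vehicle and became abundant after treatment. It had 10, 4 and 7 counts in the control vehicle libraries and 10, 6 and 9 in the labelled knockout vehicle libraries, against 491, 678 and 562 in treated controls and 731, 643 and 819 in treated labelled knockouts. As CPM it went from 0.293 ± 0.122 to 30.5 ± 5.5 in controls (SD, n = 3 libraries per group) and from 0.378 ± 0.143 to 40.3 ± 4.7 in the labelled knockouts. No treated library overlapped a vehicle library. The log2 difference was 6.69 ± 0.24 in controls (103-fold, adjusted p = 6.89e-13) and 6.76 ± 0.23 in the labelled knockouts (108-fold, adjusted p = 3.61e-13), by edgeR's quasi-likelihood test. Among the 12914 genes, Ch25h ranked 109th and 110th from the top by the size of its rise. The responses differed by 0.07 ± 0.54 (adjusted p = 0.948), with a 95% interval from −1.09 to 1.22 that its low vehicle counts leave wide.

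Between genotypes, Ch25h did not pass the threshold in either condition. In treated libraries it read 25.9, 36.6 and 29.1 CPM in controls and 43.0, 34.9 and 43.0 CPM in the labelled knockouts, and the ranges overlap through the second library of each group. The log2 difference was 0.40 ± 0.14 (1.32-fold, unadjusted p = 0.0114, adjusted p = 0.0627, edgeR). This value sits at the threshold: the adjusted p was 0.0099 without the first labelled knockout vehicle library and 0.0267 without the second treated control library, with log2 differences of 0.40 and 0.55. It was also called with no filter on low counts (adjusted p = 0.015) and with only the treated groups fitted (0.0384). The other alternatives left it uncalled, with adjusted p from 0.0518 to 0.224; the smallest log2 difference, 0.28, came without the first treated control library. In vehicle the difference was 0.33 ± 0.46 (adjusted p = 0.743), with a 95% interval from −0.65 to 1.32, and it was 0.0056 without the second control vehicle library.

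Cyp27a1, whose product also makes an oxysterol directly from cholesterol, moved opposite to Ch25h. In vehicle it read 33.2, 35.4 and 34.8 CPM in controls and 20.5, 24.7 and 24.9 CPM in the labelled knockouts. After treatment it read 2.69, 3.99 and 3.89 CPM in controls and 4.71, 5.91 and 5.73 CPM in the labelled knockouts. The genotype groups overlap in neither condition, and their order turned: the labelled knockouts were the lower group in vehicle and the higher group after treatment. Treatment lowered Cyp27a1 9.77-fold in controls (log2 difference −3.29 ± 0.14, adjusted p = 6.76e-12, edgeR) and 4.28-fold in the labelled knockouts (−2.10 ± 0.13, adjusted p = 9.25e-10). Its fall was the 218th deepest of 12914 genes in controls and the 796th deepest in the labelled knockouts.

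The genotype comparisons asked what differs between libraries labelled knockout and controls. In vehicle 0 of the 5 genes were higher and 1, Cyp27a1, was lower, where 2.11% of all tested genes were higher and 1.69% lower. At an unadjusted p under 0.05, edgeR had 2 of the 5 higher, Cyp7b1 and Gpr183, and DESeq2 called 0 after adjustment. The log2 difference of Cyp27a1 was −0.56 ± 0.12 (1.47-fold lower, adjusted p = 0.0111, edgeR). Without the second control vehicle library the adjusted p was 0.066 (log2 difference −0.54). After treatment 1 of the 5, Cyp27a1, was higher and 1, Hsd3b7, was lower, beside 10% and 6.10% of all genes; with scaling to total counts the split over all genes turned from 1293 higher and 788 lower to 841 and 1578. Cyp27a1 was higher by 0.63 ± 0.16 (1.55-fold, adjusted p = 0.0129). This call was lost without the first treated control library (0.46, adjusted p = 0.0709) and without treated labelled knockout library 2 (0.57, 0.0565) or library 3 (0.59, 0.0538).

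The difference between the 2 treatment responses of Cyp27a1 was 1.19 ± 0.20 on the log2 scale (95% interval 0.77 to 1.61, adjusted p = 0.00255, edgeR's interaction term). Under the 17 alternatives run for it, which include leaving out each library in turn, it ranged from 1.03 to 1.29 and stayed past the threshold. Of the 5 genes, 1 was higher and 0 were lower in this test (Hsd3b7 and Gpr183 were lower at an unadjusted p under 0.05, and DESeq2 called Hsd3b7), beside 4.70% and 3.35% of all tested genes (607 and 432 genes, or 388 and 788 with scaling to total counts). PPARγ, the product of this gene in mouse and human, is known to drive CYP27A1 expression in human macrophages. Here, in mouse cells, counts of Pparg differed in vehicle in the direction opposite to Cyp27a1, as given above, but they do not show whether exons were lost. The part of PPARγ in the Cyp27a1 values was not tested.

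**Figure D2:**
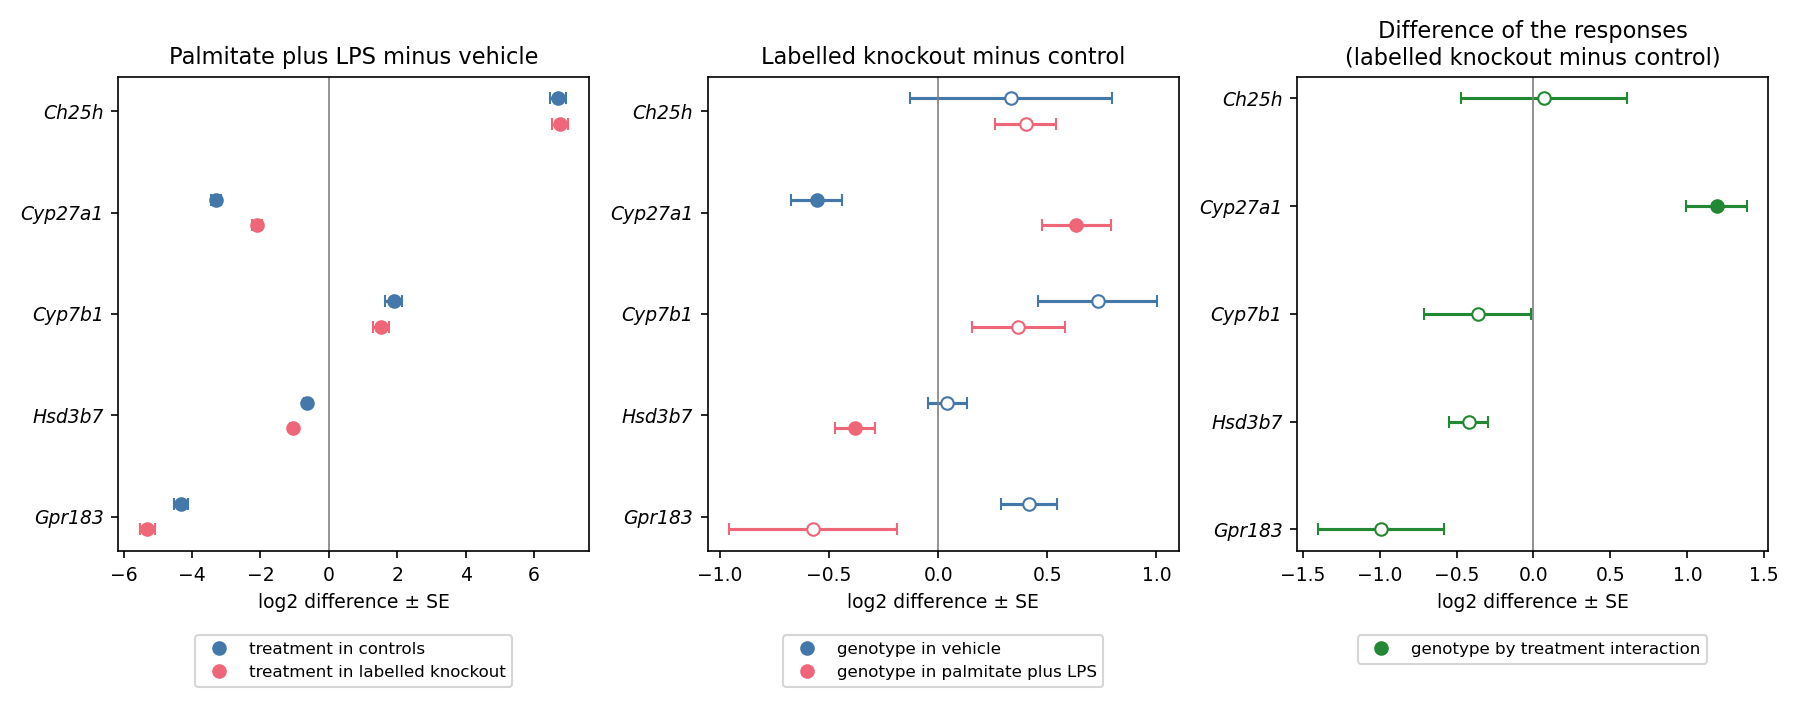
Log2 differences (points) with standard errors (bars) of the 5 genes for treatment within each genotype, for genotype within each condition, and for the difference of the treatment responses; filled points passed an adjusted p of 0.05. All 10 treatment differences are filled; among genotype differences, Cyp27a1 is filled in both conditions with opposite signs and Hsd3b7 after treatment, and Cyp27a1 is the 1 filled point of the interaction at 1.19.

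Cyp7b1, which makes the dihydroxylated ligand of GPR183, was a low-count gene that rose with treatment. It had 32, 35 and 26 counts in control vehicle libraries and 85, 97 and 90 in treated controls, or 1.28 ± 0.08 and 4.79 ± 0.40 CPM. In the labelled knockouts it had 49, 60 and 36 counts in vehicle and 147, 93 and 94 after treatment, or 2.15 ± 0.58 and 6.21 ± 2.11 CPM. Each treated library was above each vehicle library, and the first treated labelled knockout library stood alone at 8.65 CPM beside 5.04 and 4.94 CPM. The log2 difference was 1.90 ± 0.25 in controls (3.73-fold, adjusted p = 6.4e-06, edgeR) and 1.53 ± 0.23 in the labelled knockouts (2.90-fold, adjusted p = 2.25e-05). The responses differed by −0.36 ± 0.35 (adjusted p = 0.52, 95% interval −1.10 to 0.37).

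In vehicle the genotype groups of Cyp7b1 did not overlap, at 1.20, 1.34 and 1.31 CPM in controls and 2.57, 2.39 and 1.48 CPM in the labelled knockouts. The difference of 0.73 ± 0.27 (1.66-fold) did not pass the threshold (adjusted p = 0.183, edgeR), though it did when low-count genes were kept in the fit (0.72, adjusted p = 0.0424). After treatment the groups overlapped and the difference was 0.37 ± 0.21 (adjusted p = 0.263). It rested on the first treated labelled knockout library, without which it was 0.059 (adjusted p = 0.873). The sum of stromal markers was higher in the labelled knockouts than in the controls of the same condition. It was taken over 8 fibroblast and mesothelial genes, none of them at 0 in any library. The summed CPM was 110.5 to 131.9 in control vehicle and 143.8 to 188.8 in labelled knockout vehicle libraries. After treatment it was 123.5 to 142.6 in control and 181.1 to 330.3 in labelled knockout libraries. In each genotype the vehicle and treated ranges of this sum overlap, but its genes did not move together. Treatment called 1 of the 8 higher and 4 lower in controls, and 2 higher and 1 lower in the labelled knockouts. Dcn, 1 of the 8, rose from 26.6 to 66.3 CPM in controls and from 37.9 to 91.2 CPM in the labelled knockouts. The highest sum belonged to the library with the highest Cyp7b1, and 5 of the 8 markers were higher in the labelled knockouts after treatment. The sum of 7 neutrophil markers did separate with treatment. It was 76.7 to 80.4 CPM in control vehicle and 106 to 115 in treated control libraries. In the labelled knockouts it was 110 to 113 in vehicle and 143 to 173 after treatment. Only 3 of the 7 passed the filter, and they did not move together. Treatment called 2 higher and 1 lower in controls, and 1 higher and 1 lower in the labelled knockouts. Between genotypes after treatment, 2 were higher and 1 lower in the labelled knockouts. The highest sum was again in the first treated labelled knockout library. Of the defining neutrophil genes, Ly6g was at 0 in every library and S100a9 had 2 counts in all 12 together. The part of stromal cells and neutrophils in the Cyp7b1 values was not tested.

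Hsd3b7, which removes the GPR183 ligand, fell with treatment, and this is stated for the row as counted, with its Setd1a overlap. It read 169.8, 180.2 and 189.5 CPM in control vehicle and 116.0, 117.7 and 114.9 CPM in treated control libraries. In the labelled knockouts it read 201.2, 191.0 and 162.8 CPM in vehicle and 81.9, 97.4 and 88.3 CPM after treatment. The vehicle groups overlap, and the treated labelled knockout libraries all lie below the treated controls. The fall was −0.63 ± 0.09 in controls (1.55-fold, adjusted p = 1.46e-05, edgeR) and −1.05 ± 0.09 in the labelled knockouts (2.07-fold, adjusted p = 4.04e-08). In controls 49.0% of all tested genes had a larger change in either direction.

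After treatment Hsd3b7 was lower in the labelled knockouts by 0.38 ± 0.09 (log2 difference −0.38, 1.30-fold lower, adjusted p = 0.00982, edgeR). Leaving out the first treated labelled knockout library gave −0.32 and an adjusted p of 0.0589. In vehicle the difference was 0.04 ± 0.09 (adjusted p = 0.848, 95% interval −0.15 to 0.23). The difference of the responses, −0.42 ± 0.13, had an adjusted p of 0.0538; it was called with scaling to total counts (−0.45, adjusted p = 0.0218), with no filter (−0.42, 0.034), by DESeq2 (−0.43, 0.0268) and without labelled knockout vehicle library 1 (−0.36, 0.0136) or library 3 (−0.51, 0.0124). Setd1a's own row held 3.61 ± 0.74, 3.94 ± 0.22, 3.69 ± 0.50 and 3.47 ± 0.56 CPM in the control vehicle, labelled knockout vehicle, treated control and treated labelled knockout groups, and it was called in none of the 5 comparisons. How many of the reads counted for Hsd3b7 come from Setd1a was not tested.

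Gpr183, the receptor, was almost lost after treatment. It had 212, 232 and 196 counts in control vehicle and 5, 9 and 11 in treated control libraries, or 8.90 ± 0.99 and 0.440 ± 0.158 CPM. In the labelled knockouts 243, 283 and 281 counts in vehicle stood against 5, 4 and 7 after treatment, or 11.9 ± 0.8 and 0.293 ± 0.076 CPM. The treated and vehicle libraries lay far apart in both genotypes, with no overlap.

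The fall was 19.9-fold in controls (log2 difference −4.32 ± 0.21, adjusted p = 3.08e-11, edgeR) and 39.6-fold in the labelled knockouts (−5.31 ± 0.22, adjusted p = 4.26e-12). Gpr183 had the 69th deepest fall of the 12914 genes in controls and the 27th deepest in the labelled knockouts. The difference of the responses, −0.99 ± 0.41, did not pass the threshold (unadjusted p = 0.0294, adjusted p = 0.142, 95% interval −1.86 to −0.12). In vehicle the labelled knockouts, at 12.7, 11.3 and 11.6 CPM, were all above the controls, at 7.92, 8.88 and 9.90 CPM, but the difference of 0.42 ± 0.13 (1.33-fold) did not pass (adjusted p = 0.103). After treatment, with 4 to 11 counts per library, a genotype difference was not detectable at this depth (−0.57 ± 0.39, adjusted p = 0.393, 95% interval −1.39 to 0.25).

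GPR183 is also made by B cells and dendritic cells, so their markers were summed beside it. The 6 B cell markers summed to 42.5 to 52.2 CPM in control vehicle, 34.4 to 35.2 in labelled knockout vehicle, 15.6 to 20.9 in treated control and 12.2 to 16.7 in treated labelled knockout libraries. Of these, Ighm fell in both genotypes, Cd79a, Cd79b and Ms4a1 were called in neither, and Pax5 had 3 counts in all libraries together. The 6 dendritic cell markers summed to 2.93 to 4.74 CPM in vehicle and 10.1 to 13.8 CPM in treated libraries, a sum that moved opposite to Gpr183. Its genes went both ways. Of the 4 that passed the filter, treatment called 2 higher and 1 lower in controls, and 3 higher and 1 lower in the labelled knockouts. T and NK cell markers were low and lower after treatment, summing to 1.01 to 1.83 CPM in control vehicle, 1.55 to 1.73 in labelled knockout vehicle, 0.415 to 0.917 in treated control and 0.158 to 0.596 in treated labelled knockout libraries. Eosinophil markers, which hardly go beyond Siglecf here since Epx and Prg2 had 2 counts each in all libraries together, summed to 7.27 to 8.43, 6.33 to 7.38, 2.16 to 2.54 and 1.71 to 2.52 CPM in the same order of groups. The part of these cells in the fall of Gpr183 was not tested.

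Levels can be compared between the 5 genes per kilobase of exon (RPKM after TMM scaling), with Hsd3b7 divided by all 6154 bases counted for it. In control vehicle the order was Hsd3b7 at 29.2 ± 1.6, Cyp27a1 at 15.9 ± 0.5, Gpr183 at 3.03 ± 0.34, Cyp7b1 at 0.592 ± 0.036 and Ch25h at 0.217 ± 0.090 RPKM (SD, n = 3). No neighbours in that order overlapped, and labelled knockout vehicle libraries had the same order, also without overlap. After treatment Ch25h was no longer last: over these lengths, in controls it stood at 22.6 ± 4.1 RPKM, ahead of Hsd3b7 at 18.9 ± 0.2, Cyp7b1 at 2.21 ± 0.18, Cyp27a1 at 1.62 ± 0.33 and Gpr183 at 0.149 ± 0.054. The treated labelled knockouts kept this order, at 29.9 ± 3.5, 14.5 ± 1.3, 2.87 ± 0.98, 2.51 ± 0.30 and 0.0996 ± 0.0257 RPKM. There the ranges of Cyp7b1 and Cyp27a1 overlapped, and no other neighbours did. The order of Ch25h and Hsd3b7 depends on the length used: over the 2626 bases from the RefSeq start of Hsd3b7, a division chosen after seeing the data, all of its reads gave 44.3 ± 0.5 RPKM in treated controls and 34.0 ± 3.0 in treated labelled knockouts. Hsd3b7 then came before Ch25h, without overlap in the controls and with overlap in the labelled knockouts, so which of the 2 was higher after treatment is not settled by these counts. Of the 2 genes whose enzymes make an oxysterol directly from cholesterol, Cyp27a1 was the higher in every vehicle library and Ch25h in every treated library.

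For each gene the 3 genes with the most similar profile were taken by Pearson's r of log2 CPM over the 12 libraries, among 6772 named genes with a mean of at least 10 CPM. The genes nearest to Ch25h included Parp12 and Ifi211 (r = 0.998 each), both known interferon-induced genes. Cyp27a1 was nearest to Jup (0.998), Sorl1 (0.991) and Stra6l (0.990). Jup, which encodes junction plakoglobin, also had lower means in the labelled knockouts in vehicle, 34.6 against 43.6 CPM, and higher ones after treatment, 10.7 against 7.57 CPM. Cyp7b1 was nearest to Ergic2 (0.985), Clu (0.983) and Dcn (0.980), and Dcn, which encodes decorin, is one of the fibroblast markers summed above. Gpr183 was nearest to C77080, Galm and Ndrg3 (0.997, 0.997 and 0.996), and Hsd3b7 to Ddhd2, Snx32 and Cryzl2 (0.992, 0.990 and 0.990). These are descriptions: the 12 points share the treatment, and 1252, 119, 362, 393 and 765 of the 6772 genes exceeded r = 0.95 with Ch25h, Cyp7b1, Cyp27a1, Hsd3b7 and Gpr183.

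Around the 5 genes, 71 further genes of the pathway, in 7 lists of 8 to 26 genes, passed the filter. Of these, 17 rose and 35 fell with treatment in controls, and 18 rose and 37 fell in the labelled knockouts. Between genotypes, 0 were higher (2 at an unadjusted p under 0.05 by edgeR) and 4 lower in vehicle, and 3 were higher and 20 lower after treatment. The treatment response was more positive in the labelled knockouts for 5 of them and more negative for 9. The shares of all tested genes are the background to these counts and to the counts of each of the 7 lists below. With treatment, 32.0% of all tested genes were higher and 34.7% lower in controls, and 33.7% and 35.6% in the labelled knockouts. Between genotypes after treatment, 10% were higher and 6.10% lower in the labelled knockouts. The shares for the other comparisons are given above.

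Other enzymes that make, convert or esterify sterols were mostly lower after treatment. Of 14 listed, 8 passed the filter, with 2 higher and 5 lower in controls and 2 higher and 6 lower in the labelled knockouts; the median log2 difference was −1.18 and −1.56, beside −0.05 and −0.06 over all genes. Cyp7a1 and Cyp46a1, which start bile acid synthesis in liver and cholesterol turnover in brain, were among the 6 that did not pass. Soat1, the main cholesterol-esterifying enzyme of macrophages, fell from 1270 ± 25 to 282 ± 16 CPM in controls, while Soat2 rose from 1.63 ± 0.12 to 5.36 ± 0.94 CPM.

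Dhcr7 and Ebp encode late enzymes of cholesterol synthesis whose products together also hydrolyse cholesterol epoxides. Dhcr7 fell by 2.46 ± 0.10 in controls and by 3.04 ± 0.11 in the labelled knockouts on the log2 scale, and after treatment it was lower in the labelled knockouts (−0.57 ± 0.11, adjusted p = 0.0021, edgeR). Ebp was lower there too (−0.48 ± 0.13, adjusted p = 0.0199), a call lost without treated control library 2 or 3 or treated labelled knockout library 1 or 2 (adjusted p up to 0.0949).

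Downstream of Hsd3b7, 4 of 10 listed bile acid enzymes passed the filter, and Amacr, Hsd17b4 and Scp2, which act on the side chain in peroxisomes, fell in both genotypes by 0.48 to 1.13 on the log2 scale. The list's median was −0.67 in controls and −1.04 in the labelled knockouts. After treatment Amacr (−0.67 ± 0.14, adjusted p = 0.00332, edgeR) and Hsd17b4 (−0.30 ± 0.07, adjusted p = 0.00943) were lower in the labelled knockouts; the call of Hsd17b4 was lost without treated control library 3 (adjusted p = 0.0505).

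The cytochrome P450 members need electron donors, and Cyp27a1 needs cholesterol in mitochondria. All 8 genes listed for this passed the filter. Por, the microsomal P450 reductase that serves Cyp7b1, read 384 ± 21 CPM in control and 285 ± 5 CPM in labelled knockout vehicle libraries (−0.43 ± 0.07, adjusted p = 0.00128, edgeR), and 272 ± 7 and 284 ± 7 CPM after treatment. Stard3, a late endosomal cholesterol carrier, rose from 112 ± 6 to 372 ± 22 CPM in controls and from 104 ± 5 to 483 ± 12 CPM in the labelled knockouts. Cyb5a, which encodes cytochrome b5, fell by 0.92 ± 0.13 in the labelled knockouts and was at −0.06 ± 0.13 in controls.

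Among sterol-binding proteins and sensors, 22 of 26 passed, and treatment called 8 higher and 10 lower in controls and 9 higher and 9 lower in the labelled knockouts, with medians of −0.02 and −0.09. Osbpl3, an oxysterol-binding protein family member, rose from 5.56 ± 0.04 to 49.4 ± 5.9 CPM in controls and from 5.37 ± 1.01 to 37.4 ± 4.4 CPM in the labelled knockouts. Nr1h3, which encodes LXRα, read 88.5 ± 8.5 CPM in control and 40.8 ± 6.6 CPM in labelled knockout vehicle libraries (−1.12 ± 0.12, adjusted p = 2.12e-05, edgeR). After treatment the 2 genotypes stood at 64.3 ± 7.3 and 64.6 ± 3.0 CPM (adjusted p = 0.974), so Nr1h3 fell in controls and rose in the labelled knockouts.

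For signalling from GPR183, 8 of 9 listed genes of inhibitory G proteins, arrestins and receptor kinases passed. In both genotypes Gnai2, Arrb1, Arrb2, Grk5 and Grk6 fell with treatment, and the list's median was −0.71 in controls and −0.97 in the labelled knockouts. Arrb1, which encodes β-arrestin 1, fell by 3.07 ± 0.21 and 3.39 ± 0.22 on the log2 scale. Grk3, a receptor kinase, went the other way in the labelled knockouts (1.24 ± 0.17) and was at 0.25 ± 0.16 in controls.

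LXR target genes were mostly lower after treatment. Of 8, all passed; 2 rose and 5 fell in controls, and 1 rose and 5 fell in the labelled knockouts. Abca1, a cholesterol exporter, rose from 12.6 ± 1.1 to 23.0 ± 1.7 CPM in controls and from 16.3 ± 1.5 to 22.3 ± 0.5 CPM in the labelled knockouts; with scaling to total counts the second call was lost (adjusted p = 0.594, edgeR), as was that of Lpcat3 in controls (0.0662). Abcg1, the partner exporter, fell in both genotypes and was lower in the labelled knockouts in vehicle, at 527 ± 89 against 955 ± 42 CPM, and after treatment, at 365 ± 47 against 541 ± 52 CPM.

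The 15 SREBP2 targets, for sterol synthesis and uptake, split with treatment: 4 rose and 5 fell in controls, and 3 rose and 7 fell in the labelled knockouts. With scaling to total counts this became 0 rising and 9 falling in controls and 1 and 11 in the labelled knockouts, so the rising share depends on the scaling. After treatment 0 were higher and 7 lower in the labelled knockouts, among them Mvd (−0.60 ± 0.08), Nsdhl (−0.54 ± 0.10), Fdps (−0.65 ± 0.13) and Lss (−0.37 ± 0.08). Without treated control library 2 or treated labelled knockout library 3, 4 were lower, and without the first labelled knockout vehicle library 2 were higher and 10 lower. In vehicle 0 of the 15 were called by edgeR or DESeq2, and 3 were lower at an unadjusted p under 0.05.

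**Figure D3:**
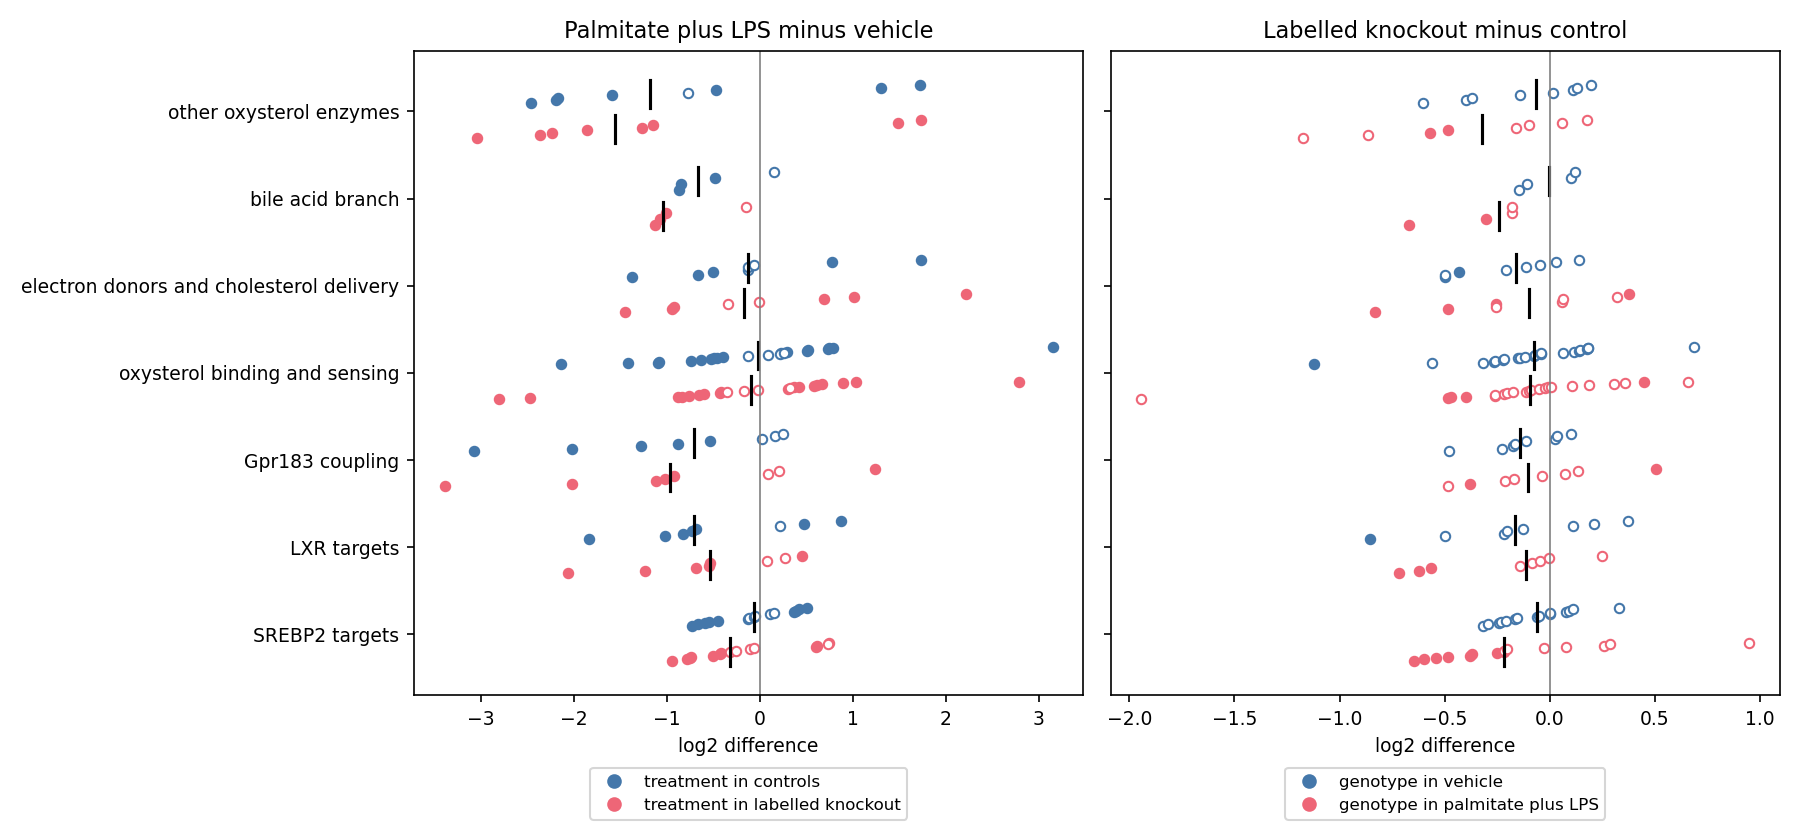
Log2 differences of the tested genes of the 7 pathway lists, for treatment within each genotype (left) and genotype within each condition (right); each point is 1 gene, filled where the adjusted p is under 0.05, and black bars are list medians. All 7 lists have medians below 0 on the left, from −1.18 to −0.02 in controls and from −1.56 to −0.09 in the labelled knockouts. The medians of all genes there are −0.05 and −0.06. On the right filled points in vehicle are few.

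**Figure D4:**
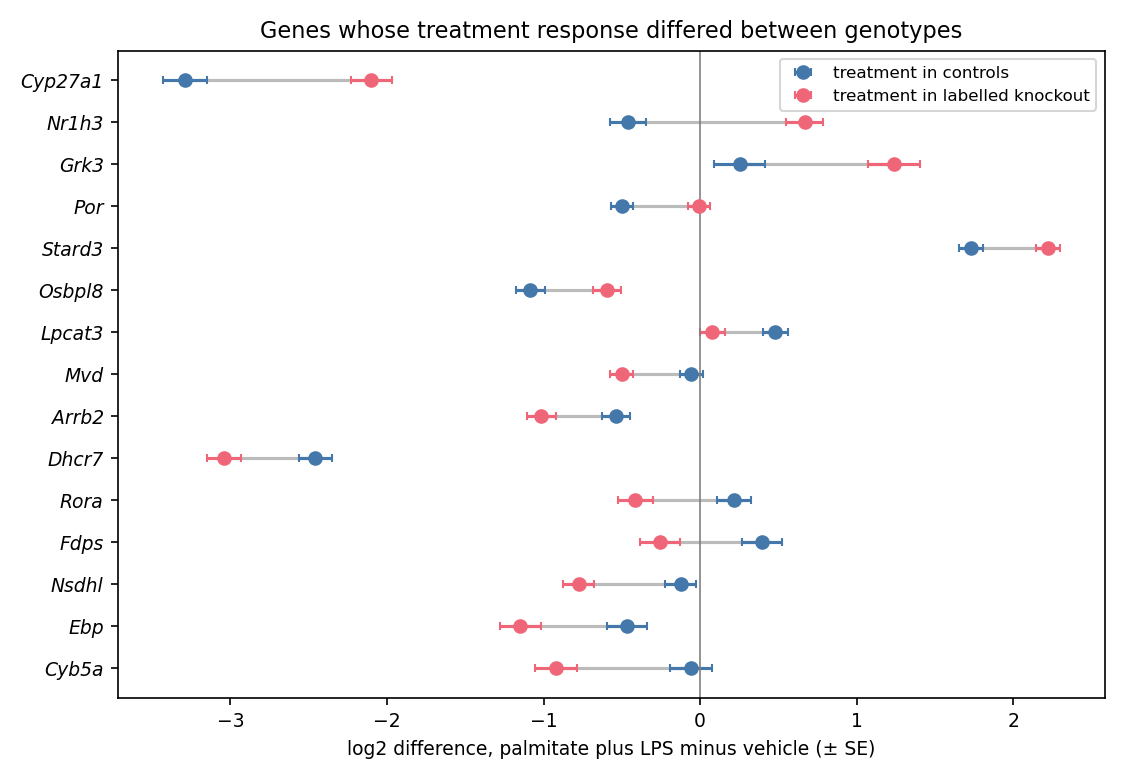
Treatment responses (log2 difference with standard error) in controls and labelled knockouts for Cyp27a1 and the 14 pathway genes whose responses differed between genotypes at an adjusted p under 0.05, ordered by that difference. Cyp27a1 falls less in the labelled knockouts, Nr1h3 changes in opposite directions, and Cyb5a has the most negative difference.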

How the data were processed

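RNA sequencing measured 12 libraries of mouse macrophages. Tools named in the submitters' processing notes are Subread, featureCounts 1.45, STAR 2.0.4b and bcl2fastq 2.0, with the build GRCm38; the sources used here give no options, annotation release or use of strand. RNA was column-purified and libraries were made with a SMARTer kit, per the labels' protocols. Each deposited table gives, per gene, the authors' raw count, a CPM (the count scaled to the library total) and an RPKM (that CPM per kilobase of exon); the counts were tested, and the deposited CPM and RPKM served as a check. Groups came from the titles.

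Counts of genes kept by filterByExpr (12914 genes, over 99.9% of each library's counts) were fitted with edgeR 4.0.16 in R 4.3.3: TMM scaling, 1 mean per group over all 12 libraries, robust quasi-likelihood F-tests, Benjamini-Hochberg adjustment over all genes, threshold 0.05. Printed CPM and RPKM levels use TMM-scaled library sizes. The pipeline was tested on simulated data. Libraries of a group differed by more than counting noise (chi-square 2.42 to 46.2 per degree of freedom), so none was merged. Of the gene IDs, 40254 were matched to a symbol.

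Genes named beyond the 5 were, per list and comparison, up to 4 past the threshold with the smallest p and up to 2 against the list's main direction, plus the 3 best-correlated genes per member; a few of these are not reported here. The members and lists were chosen with earlier results of these data known. Alternatives were total-count and RLE scaling, no filter, DESeq2 1.42.0, only the groups compared, a replicate block, and leaving out each library.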

Additional observations from a re-analysis of the deposited data

Results flagged for a closer look

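The treatment response differed between genotypes, by the interaction term of edgeR's quasi-likelihood test over all 12914 genes (log2 response in labelled knockouts minus that in controls), for Cyp27a1 by 1.19. Among the other genes of the pathway it was more positive in the labelled knockouts for the LXRα gene Nr1h3 (1.13), the receptor kinase gene Grk3 (0.985), the P450 reductase gene Por (0.491), the cholesterol carrier gene Stard3 (0.489) and the oxysterol-binding family gene Osbpl8 (0.489). It was more negative for the cytochrome b5 gene Cyb5a (−0.862), for the sterol synthesis genes Ebp (−0.678), Nsdhl (−0.652), Fdps (−0.649), Dhcr7 (−0.585) and Mvd (−0.445), for the nuclear receptor gene Rora (−0.629), the β-arrestin 2 gene Arrb2 (−0.479) and the phospholipid-remodelling LXR target Lpcat3 (−0.403). Cyp27a1, Nr1h3, Por, Stard3, Cyb5a and Nsdhl stayed past the threshold under each alternative run. Each of the other 9 lost its call in at least 1 fit that left out a library, with adjusted p-values up to 0.0731 for Dhcr7, 0.0673 for Grk3, 0.0984 for Ebp, 0.111 for Fdps, 0.0707 for Mvd, 0.063 for Rora, 0.103 for Osbpl8, 0.1 for Arrb2 and 0.116 for Lpcat3.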

How the results depend on the processing

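Of 443 values of single oxysterol genes under alternative settings, 421 kept their direction and their side of the threshold, 5 lost a call, 10 gained one and 7 changed sign. The treatment calls of the 5 genes held in both genotypes under each alternative run. The sign changes touched values near 0. For Hsd3b7 in vehicle (0.04) they were −0.008891 with total-count scaling, −0.0007522 without control vehicle replicate 1 and −0.02165 without labelled knockout vehicle replicate 1. For the Ch25h interaction (0.07) they were −0.1933 and −0.06079 without control vehicle replicates 1 and 3, −0.1924 without labelled knockout vehicle replicate 2 and −0.04025 without treated control replicate 1. Leaving out 1 library gave values up to 0.1242 for the first and up to 0.395 for the second. Their cause was not tested. Dividing Hsd3b7 by 2626 in place of 6154 bases, chosen after seeing the data, raised its RPKM by construction. It put the mean of Hsd3b7 before that of Ch25h in both treated groups, with overlapping ranges in the labelled knockouts.

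With no filter on low counts, 960 genes in place of 491 were called between genotypes in vehicle, 1 of the 5 genes in place of 0 was higher there, 2 in place of 1 were higher after treatment, 1875 in place of 1039 genes were called for the interaction, and 1 of the 5 in place of 0 was lower in it. With only the groups compared in the fit, 229 genes were called in vehicle and 3811 in place of 2081 after treatment, with 2 of the 5 higher. Total-count scaling and DESeq2 each called 1 of the 5 lower in the interaction. The cause was not tested. Leaving out each library in turn gave 261 to 789 genes in vehicle, 1227 to 4080 after treatment and 428 to 1962 for the interaction. Of the 5 genes it gave 0 to 1 lower in vehicle, 0 to 2 higher and 0 to 1 lower after treatment, and 0 to 1 lower in the interaction.

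Titles number the replicates 1 to 3, but same-numbered libraries did not deviate together (12 pairs, r from −0.175 to 0.067, 3 of them highest with their own number). With a replicate block 514 genes were called for the interaction, and the block changed no call of the 5 genes. Fitting only the groups compared gave no value for Ch25h in vehicle or Gpr183 after treatment, whose counts were then under the filter, and was not run for the interaction. Those low counts, 4 to 11 per library, are where depth limits the comparisons.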
